A study of Mus musculus with 4 samples.

Results

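Pericytes and vascular smooth muscle cells, together called mural cells, were picked out of single-cell transcriptomes of mouse pituitary glands by the genes they transcribed. A cell barcode with at least 500 detected genes and at most 20% mitochondrial transcripts was a member when at least 3 of the 7 mural genes Rgs5, Pdgfrb, Cspg4, Kcnj8, Abcc9, Notch3 and Higd1b were detected. Fewer than 4 of the 8 endothelial genes Pecam1, Plvap, Emcn, Egfl7, Flt1, Kdr, Cdh5 and Esam, no Pdgfra transcript, and under 10% of unique molecular identifiers (UMIs, one per counted transcript) from Gh, Prl and Pomc were also required. This gave 105 members among 27220 barcodes that met the quality limits. There were 24 members in HFD 1 and 30 in HFD 2, against 16 in CTRL 1 and 35 in CTRL 2.

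The glands came from wild-type male C57BL/6J mice that ate a high fat diet (HFD, 2 libraries) or a control diet (CTRL, 2 libraries) for 12 weeks, and were dissociated with collagenase and trypsin before capture with 10x Genomics 3' v3.1 chemistry. The sources used here state neither the composition of the diets nor the age of the mice. Nothing states how many glands entered a library, so p-values for diet measure only the spread between the 2 libraries of each diet. Those between cell classes measure how the class difference varies across libraries.

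Mural cells wrap capillaries, arterioles and venules from the outside and share a basement membrane with the endothelium. Endothelial platelet-derived growth factor B recruits pericytes through the receptor encoded by Pdgfrb, and Notch3 receives ligands of neighbouring vascular cells. Kcnj8 and Abcc9 encode the pore and the regulatory subunit of the vascular ATP-sensitive potassium channel, Rgs5 a brake on G protein signalling and Cspg4 the NG2 proteoglycan. In the pituitary these cells line the dense fenestrated capillaries through which hormones leave the gland.

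Library facts bear on all values below. Total UMIs per library were 74758237 and 97223297 in HFD 1 and HFD 2, against 92818116 and 101903367 in CTRL 1 and CTRL 2. The members held 119258 and 167317 UMIs in HFD 1 and HFD 2, against 208161 and 187912 in CTRL 1 and CTRL 2, and their median depth was 4561 UMIs. HFD 1 shared 3116 barcodes with HFD 2 and 1423 with CTRL 2, whereas every other pair of libraries shared between 14 and 22. Of the barcodes that met the quality limits in both, the HFD 1 copy had a median of 817 UMIs and the HFD 2 copy 14659.5, a median ratio of 17.9. In HFD 1, 1856 barcodes that met the quality limits (23.2%) were the shallower copy, and 4 of its 24 members were among them. Of these 4, 3 had all 7 mural genes and 7 or 8 endothelial genes in their HFD 2 copy, which was therefore no member, and 1 was a member in both libraries.

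A second irregularity was depth held by few barcodes. In 5 members, UMIs of 6 epithelial genes (Sox2, Krt8, Krt18, Epcam, Cdh1, Wfdc2) or 6 immune genes (Ptprc, C1qa, C1qb, C1qc, Tyrobp, Ctss) were at least as many as those of the 7 mural genes. One of them in HFD 2 had 14 mural against 120 epithelial UMIs, and one in CTRL 2 had 34 against 57. The other 3 were in CTRL 1, where a barcode of 85033 UMIs with 62 mural and 394 epithelial UMIs alone held 40.8% of the members' transcripts. CTRL 1 sums therefore describe few barcodes, and results are also given for the other 100 members.

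The 7 genes that chose the members are given as a description. Rgs5 reached 8016 and 9838 counts per 1000000 UMIs (CPM) in HFD 1 and HFD 2 members, against 3656 and 9350 CPM in CTRL 1 and CTRL 2 members, and was detected in 99 of 105. Rgs5 was lowest in CTRL 1, and over the 100 members it was 8016, 11248, 8305 and 10024 CPM in HFD 1, HFD 2, CTRL 1 and CTRL 2. In the remaining 25465 barcodes, whose median depth was 11806 UMIs, Rgs5 was seen in 1.68%. They include barcodes just outside the rule, 47 with 2 mural genes and 91 with at least 4 endothelial genes. The share therefore does not measure free RNA alone. Pdgfrb was detected in 87.6% of members, Abcc9 and Notch3 in 84.8% each, Kcnj8 and Higd1b in 79.0% each and Cspg4 in 51.4%. Higd1b and Cspg4 were rare in the 1309 endothelial barcodes described below, with a UMI in 0.458% and 0.0764% of them. Pdgfrb was shared with fibroblasts, at 800 CPM over all members and 308 CPM in 341 fibroblast barcodes, of which 77.7% held it. Kcnj8 stood at 532 CPM in the members and at 59.9 CPM in endothelial barcodes, of which 21.9% held it.

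Most members lay well inside the rule. All 7 mural genes were detected in 34 members, 6 in 36, 5 in 10, 4 in 10 and exactly 3 in 15. Just outside, 47 barcodes met every other condition with 2 mural genes, 91 had at least 4 endothelial genes, 29 had Pdgfra and 8 had too much hormone RNA. The 15 members with exactly 3 mural genes had a median of 3221 UMIs, and the 47 barcodes with 2 had 11075. No endothelial rule gene was detected in 22 members, 1 in 48, 2 in 33 and 3 in 2.

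**Figure D1:**
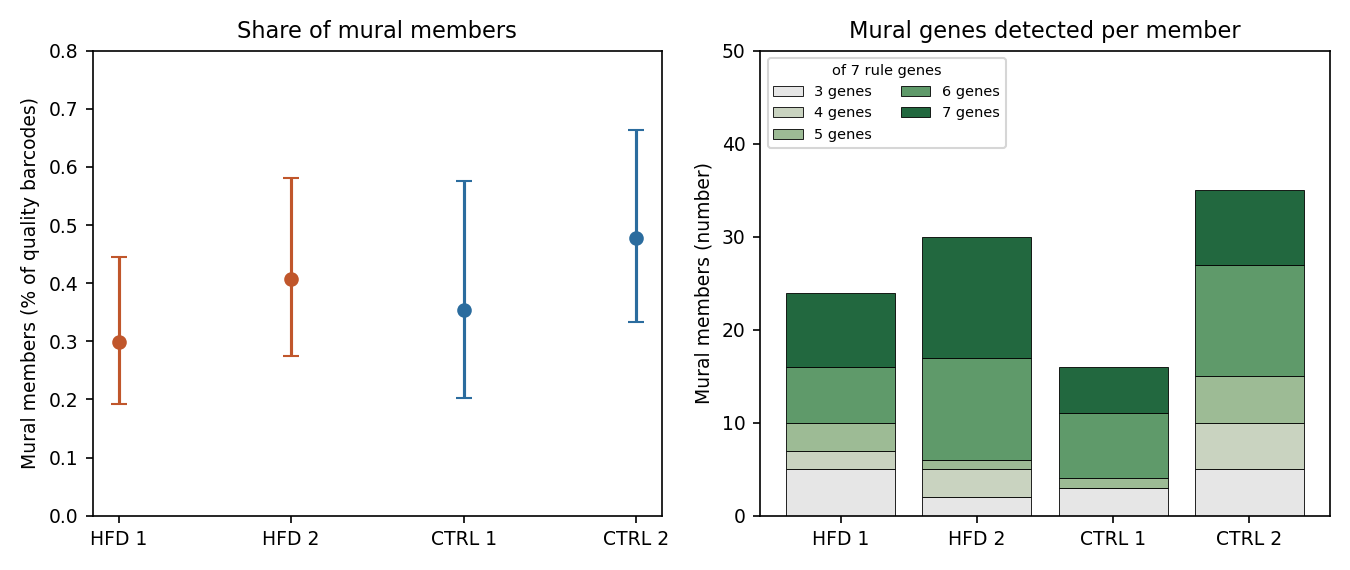
Left, mural members as a percentage of the barcodes that met the quality limits in each library (points) with exact 95% binomial intervals (bars); right, the number of members with 3 to 7 of the 7 mural genes detected. The HFD libraries stand at 0.300% and 0.408% and the CTRL libraries at 0.355% and 0.477%, and 6 or 7 genes is the commonest result in each library.

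Markers of other cells were checked in the members. Flt1 and Cdh5, which define endothelium, had 0 UMIs in members of each library, which the rule favours, while Emcn stood at 210, 281, 144 and 176 CPM in HFD 1, HFD 2, CTRL 1 and CTRL 2 members. The 14 hormone cell genes summed to 6347 to 16569 CPM in the members and to 227499 to 288095 CPM in the remaining barcodes. The rule favours this too, since it limits Gh, Prl and Pomc. Under the same limit, the endothelial barcodes had 10579 to 38148 CPM. The 10 macrophage and lymphocyte genes summed to 16.8 and 47.8 CPM in HFD 1 and HFD 2, against 677 and 58.5 CPM in CTRL 1 and CTRL 2, and to at most 27.5 CPM in any library over the 100 members. The 8 glia and oligodendrocyte precursor genes summed to at most 48.0 CPM. The 12 stem cell and pituicyte genes summed to 159, 143, 567 and 138 CPM in HFD 1, HFD 2, CTRL 1 and CTRL 2. The remaining barcodes had 220, 228, 147 and 171 CPM, so CTRL 1 members were above them. Over the 100 members the sums were 159, 41.3, 239 and 92.4 CPM. The 20 fibrillar collagen and fibroblast genes summed to 11161, 11027, 3973 and 10883 CPM, against 29384, 27012, 13235 and 22269 CPM in the fibroblast barcodes. A single HFD 2 member carried 2018 hemoglobin UMIs, and the next highest in that library had 3.

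The members made up 0.300% (95% exact binomial interval 0.192 to 0.445) of HFD 1 and 0.408% (0.275 to 0.581) of HFD 2, against 0.355% (0.203 to 0.575) of CTRL 1 and 0.477% (0.3326 to 0.663) of CTRL 2. The diets overlapped, and the shares averaged 0.354% ± 0.0764 in HFD and 0.416% ± 0.0868 in CTRL (SD, n = 2 each), a log2 difference of -0.23. A two-sided exact permutation test over libraries gave p = 0.667, where 2 libraries against 2 allow no p below 0.3333. Without the shallower copies the shares were 0.325% and 0.409% in HFD 1 and HFD 2, against 0.355% and 0.484% in CTRL 1 and CTRL 2. With every barcode thinned to 2000 UMIs they were 0.265% and 0.381%, against 0.326% and 0.433%, after 1972 and 283 shallower barcodes were left out in HFD 1 and HFD 2, and 224 and 401 in CTRL 1 and CTRL 2. Intervals cover counting error only.

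The members were then set against 1309 endothelial barcodes (394, 256, 243 and 416 in HFD 1, HFD 2, CTRL 1 and CTRL 2; at least 4 of the 8 endothelial and fewer than 3 of the 7 mural genes). Counts were summed per library and class and tested with edgeR's quasi-likelihood test with library as a block, outside the genes of the rules. Of 9629 genes, 841 (8.73%) were higher and 954 (9.91%) lower in mural members at an adjusted p under 0.05. The barcodes were picked by genes that vary with many others between cell types, so these calls say which further genes separate the classes and not that the classes exist. Leaving out CTRL 2 reduced the higher calls to 552.

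The gene furthest above endothelium was Aspn, which encodes a small leucine-rich matrix proteoglycan. It had 520 and 711 CPM in HFD 1 and HFD 2 members and 187 and 367 CPM in CTRL 1 and CTRL 2 members, against 0, 1.90, 0.346 and 0.351 CPM in endothelial barcodes of the same 4 libraries. Its log2 difference was 9.32 ± 0.41 (SE, edgeR adjusted p = 2.58e-07). Vtn, which encodes vitronectin (ENSMUSG00000017344), had 1409, 1058, 437 and 809 CPM in HFD 1, HFD 2, CTRL 1 and CTRL 2 members, against 1.30, 1.90, 1.38 and 1.75 CPM in endothelium, a log2 difference of 8.999 ± 0.31 (edgeR adjusted p = 5.87e-08). The classes did not overlap for either gene in any library. The other 8 largest, between 7.55 and 8.99 log2, were Rasl12, Slc38a11, the laminin receptor Itga7, Ndufa4l2, the smooth muscle myosin Myh11, the actin Acta2, the chloride channel Ano1 and the endothelin receptor Ednra. Rasl12, Slc38a11 and Itga7 had 1 or 2 endothelial UMIs each, so their sizes rest on counting: the pooled ratio for Slc38a11 was 777 (95% exact interval 209 to 6507). The lowest were Ly6c1, Grrp1, Ramp3, Icam2 and Gimap1, with 0 UMIs among 682648 in the members. Taking 3 counts over the group as the limit that 0 allows, 4.39 CPM, Ly6c1 was at least 84.9-fold lower, at 373 CPM in endothelium, and Gimap1 at least 29.7-fold lower.

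**Figure D2:**
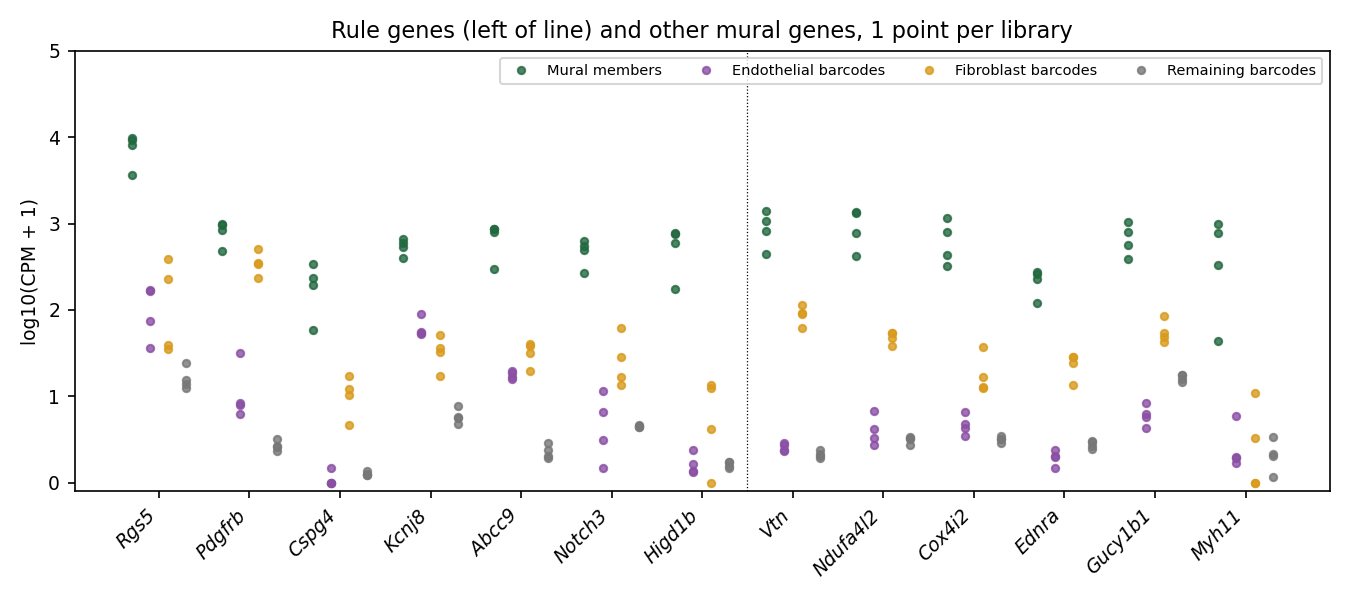
Level per library, as log10(CPM + 1), of the 7 genes of the rule (left of the dotted line) and 6 further genes in mural members, endothelial, fibroblast and remaining barcodes, with 1 point for each of the 4 libraries. The mural points are the highest for each gene except Pdgfrb, where fibroblast barcodes reach into their range.

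A list of 24 other pericyte genes, chosen for this cell type with earlier results of these data known, gave 20 genes that passed the low-count filter, and 20 were higher than in endothelium. The median log2 difference was 4.31, against -0.02 over the 9629 genes. A gene of this kind passes the filter mainly through the members, so the count describes the list and supports nothing further. Ndufa4l2 and Cox4i2 encode relatives of respiratory chain subunits that have common forms in most cells. Cox4i2 had 436, 801, 322 and 1165 CPM in HFD 1, HFD 2, CTRL 1 and CTRL 2 members, against 3.24, 3.79, 5.54 and 2.45 CPM in endothelium, a log2 difference of 7.26 ± 0.41 (edgeR adjusted p = 9.6e-07). The common form Cox4i1 differed by -0.30 ± 0.21 (edgeR adjusted p = 0.40). Ndufa4, the common counterpart of Ndufa4l2, was lower in the members, at 226, 263, 288 and 213 CPM against 651, 480, 714 and 530 CPM in endothelium (log2 -1.30 ± 0.20, edgeR adjusted p = 0.00086).

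Genes of vessel tone were examined as a list of receptors and cyclic GMP enzymes. Of 20 listed vasoactive receptor and cyclic GMP genes, 12 passed the filter, 10 were higher and 1 was lower. As with the pericyte list, several passed the filter through the members alone, so the count is a description. Ednra, which binds endothelin, had 260, 275, 120 and 229 CPM in HFD 1, HFD 2, CTRL 1 and CTRL 2 members, and between 0.474 and 1.38 CPM in endothelium. Gucy1b1, the haem-binding subunit of the nitric oxide receptor guanylyl cyclase, had 570, 801, 384 and 1038 CPM, against 3.24, 4.74, 7.27 and 5.26 CPM in endothelium (log2 6.94 ± 0.33, edgeR adjusted p = 4.3e-07). Its partner Gucy1a1 (6.31), the cyclic GMP kinase Prkg1 (2.95) the subunit Gucy1a2 (5.44) and the phosphodiesterases Pde5a (3.42) and Pde3a (5.18) were higher too on the log2 scale, as did the angiotensin receptor Agtr1a (4.65), the prostacyclin receptor Ptgir (7.54, with 1 endothelial UMI) and the sphingosine phosphate receptor S1pr3 (5.27). Tbxa2r, the thromboxane receptor, was the 1 lower gene, at 8.39, 12.0, 14.4 and 10.6 CPM against 158 to 187 CPM in endothelium (log2 -3.92 ± 0.32, edgeR adjusted p = 7.8e-06). Ednrb did not pass (-0.26 ± 0.37). Of those that did not pass the filter, Adra1b, Adra1d, Avpr1a and Ptger3 had 0 UMIs in the members.

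Ligands and receptors of mural-endothelial signalling divided between the classes. Of 15 Notch pathway genes tested, 5 were higher in mural members (the ligand Jag1 and the targets Heyl, Hey1, Hey2 and Nrarp) and 6 were lower (the ligands Dll4 and Jag2, the receptor Notch4, the modifiers Mfng and Lfng, and the target Hes1). Heyl had 159, 161, 139 and 149 CPM in HFD 1, HFD 2, CTRL 1 and CTRL 2 members, against 3.89, 6.16, 5.19 and 3.86 CPM in endothelium (log2 4.93 ± 0.27, edgeR adjusted p = 9.5e-07), with little spread between libraries. Dll4 had 3 UMIs in all members and 1768 in endothelium, a pooled ratio of 0.0272 (95% exact interval 0.0056 to 0.0796). The list's median log2 difference was 0.43 over all members and -0.22 over the 100. Of 15 growth factor genes, Pdgfa, Angpt1 and Angptl4 were higher in the members. Pdgfb, Tek, Tie1, Vegfc, Nrp2 and Aplnr were lower. Pdgfb, which encodes the ligand for the Pdgfrb product, had 16.8, 5.98, 0 and 10.6 CPM in the members, against 325, 199, 206 and 238 CPM in endothelium (log2 -5.04 ± 0.40, edgeR adjusted p = 6.8e-06), and Angpt1, the ligand of the Tek receptor, had 41.9, 47.8, 91.3 and 47.9 CPM against 7.61 to 20.4 CPM (log2 2.46 ± 0.45, edgeR adjusted p = 0.0027).

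Matrix genes differed by type. Of 16 basement membrane genes tested, Lama2, Lamb1, Lamb2, Itga1 and Itgb1 were higher in mural members, Hspg2 was lower and 10 did not pass, among them Col4a1 (-0.38 ± 0.21) and Sparc (-0.13 ± 0.22). Lama2, a laminin alpha chain, had 285, 275, 159 and 261 CPM in HFD 1, HFD 2, CTRL 1 and CTRL 2 members, against 9.73 to 27.0 CPM in endothelium (log2 4.01 ± 0.29, edgeR adjusted p = 3.9e-06). Of 15 fibrillar collagen and fibroblast genes, 11 were higher and 4 did not pass. Mgp, an inhibitor of calcification, had 7446, 8206, 2647 and 8451 CPM in the members, close to the level of Rgs5, against 79.3 to 300 CPM in endothelium. Of 19 TGF-beta and BMP genes, 4 were higher (Tgfb2, Tgfb3, Bmpr1a and Tgfbi) and 7 lower, among them the endothelial coreceptor Eng (-2.44 ± 0.23, edgeR adjusted p = 2.8e-05).

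Chemokine and interferon genes divided unevenly between the classes. Of 22 chemokine and interferon genes tested, 13 were lower and 5 higher. H2-K1, a class I antigen presentation gene, had 310, 269, 428 and 239 CPM in HFD 1, HFD 2, CTRL 1 and CTRL 2 members, against 1608, 1369, 1262 and 1540 CPM in endothelium (log2 -2.28 ± 0.25, edgeR adjusted p = 6.9e-05). The 5 higher were the chemokines Ccl2, Ccl11, Cxcl1 and Cxcl12 and the membrane protein Ifitm1, which had 956, 908, 303 and 766 CPM against 10.2 to 33.2 CPM (log2 5.18 ± 0.40, edgeR adjusted p = 6.1e-06). Of 14 heat shock genes 7 were lower and none higher, and of 26 immediate-early genes 6 were lower (Egr1, Ier3, Ier5, Klf2, Klf4 and Socs3) and none higher, so 7 and 20 genes of these lists did not pass. Against fibroblasts, described below, 3 of 14 heat shock genes (Hspa1a, Hspa1b and Hspb1) were higher and none lower. So were 3 of 25 immediate-early genes (Atf3, Klf6 and Dusp6), again with none lower. These calls used all members, and the list medians were lower over the members with more mural than epithelial and immune UMIs. Against fibroblasts the immediate-early median was -0.07 over all members and -0.78 over that subset, and the heat shock median was 0.16 and -0.11. Against endothelium the medians were -0.41 and -1.23 for immediate-early genes, and -0.83 and -1.05 for heat shock genes. Among 25 lipid, insulin and glucocorticoid genes, Cd36, Lpl and Igf1r were higher and Fabp4, Insr, Sgk1 and Cdkn1a lower. The insulin receptor gene Insr had 8.39, 12.0, 24.0 and 15.96 CPM in the members, against 122 to 181 CPM in endothelium (log2 -3.24 ± 0.35, edgeR adjusted p = 6.0e-05).

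**Figure D3:**
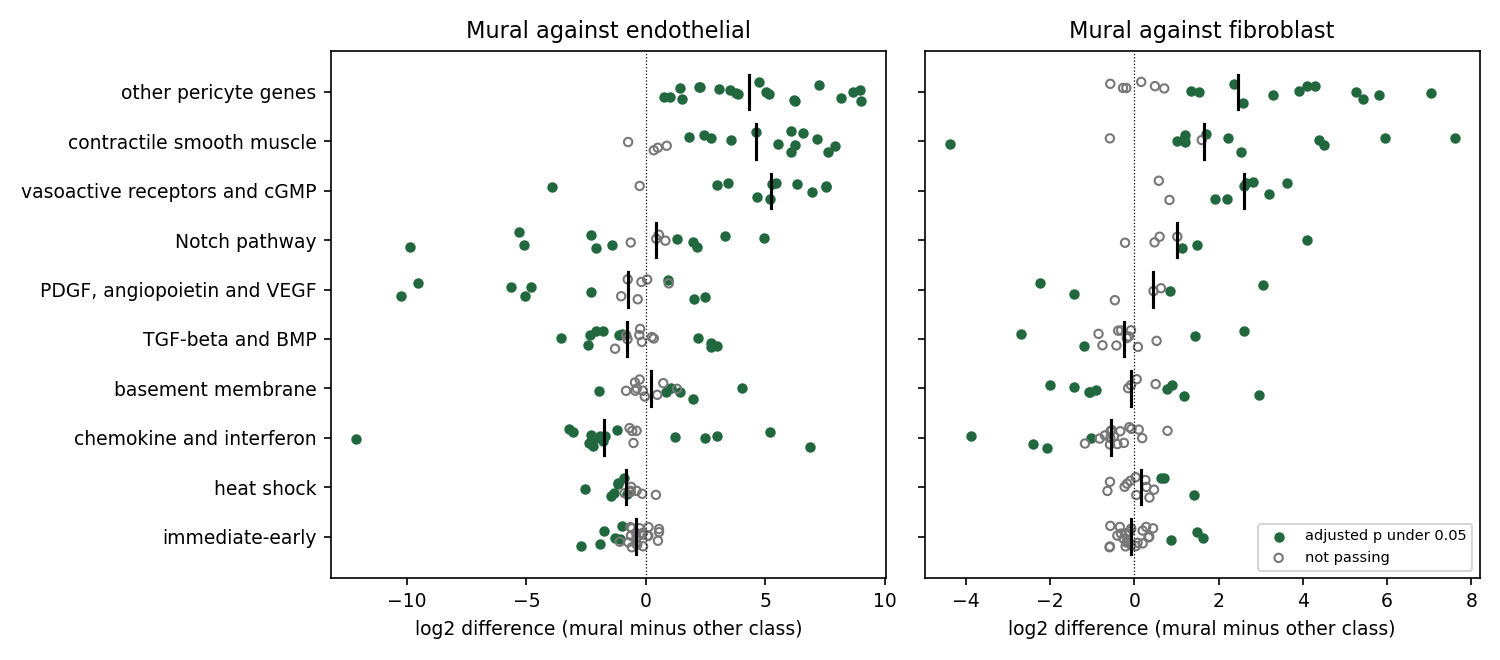
Log2 difference of each listed gene that passed the filter, mural minus endothelial (left) and mural minus fibroblast (right); filled points passed edgeR at an adjusted p under 0.05, and black bars are list medians. The medians of the pericyte, contractile and vasoactive lists lie to the right of 0 in both panels, at 4.31, 4.59 and 5.23 against endothelium and 2.47, 1.65 and 2.60 against fibroblasts. Several genes of these lists passed the filter through the members, so these medians are a description.

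Fibroblasts are the other Pdgfrb-bearing cells around vessels, and the members were compared with 341 fibroblast barcodes (56, 155, 32 and 98 in HFD 1, HFD 2, CTRL 1 and CTRL 2; Pdgfra and at least 3 of Dcn, Lum, Col1a1, Col1a2, Col3a1 and Mgp). Of 4441 genes, 390 (8.78%) were higher and 287 (6.46%) lower in mural members by edgeR. The total of 677 was 450 without HFD 2 and 425 without CTRL 2, and over the 100 members 450 genes were lower. The 10 genes furthest above fibroblasts were Myh11, the cell adhesion molecule Mcam, Aspn, Sncg, Slc38a11, Itga7, Cox4i2, Itga4, Mustn1 and the fatty acid translocase Cd36. Mcam had 83.9, 149, 57.6 and 133 CPM in HFD 1, HFD 2, CTRL 1 and CTRL 2 members, against 0, 1.47, 0 and 0 CPM in fibroblasts (log2 7.05 ± 0.48, edgeR adjusted p = 2.9e-05). Fibroblasts held 2 Mcam UMIs, and the pooled ratio was 154 (95% exact interval 41.0 to 1294). Cd36 had 92.2, 233, 43.2 and 202 CPM, against 3.14, 0.736, 9.27 and 11.2 CPM in fibroblasts (log2 4.84 ± 0.60, edgeR adjusted p = 0.00049).

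The 5 genes furthest below fibroblasts were Apod, Vwa1, Mmp2, Cldn11 and Il33. Apod, which encodes a lipid-binding apolipoprotein, had 671, 53.8, 9.61 and 15.96 CPM in HFD 1, HFD 2, CTRL 1 and CTRL 2 members, against 7860, 4682, 1397 and 5215 CPM in fibroblasts (log2 -5.80 ± 0.64, edgeR adjusted p = 0.00028). HFD 1 members stood well above the others for Apod. Of the other pericyte list, 18 genes were tested and 12 were higher, while Rarres2, Ecm2, Cygb, Tbx2, Foxc1 and Nr2f2 did not pass, with log2 differences between -0.57 and 0.71. Vasoactive genes were higher in 7 of 9 and Notch genes in 3 of 7 tested (Nrarp, Jag1 and Heyl). Of all genes tested 8.78% were higher. Mcam, Slc38a11 and Itga7 of the pericyte list had 2, 7 and 8 fibroblast UMIs and passed the filter through the members. The counts of these lists are therefore a description. Of 13 basement membrane genes, Col4a1, Col4a2, Itga1 and Itgb1 were higher and Col18a1, Lama2, Lamb1, Nid1 and Hspg2 lower. Lama2 and Lamb1 thus stood between endothelium and fibroblasts. Of 9 fibrillar collagen and fibroblast genes outside the rule, 5 were lower (Col5a1, Fbln1, Gsn, Serpinf1 and Islr) and Col6a1, Col6a2, Col5a2 and Cygb did not pass.

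Contractile genes separated the members from one another. Actin, myosin, calponin and tropomyosin genes are strong in arteriolar smooth muscle and weak in capillary pericytes. Of 17 contractile genes tested against endothelium 13 were higher, as were 8.73% of all genes tested. Of 14 tested against fibroblasts 11 were higher, as were 8.78% of all genes tested, and 1, Crispld2, was lower. Several, such as Myh11 with 21 endothelial and 9 fibroblast UMIs, passed the filter through the members, so the counts are a description. The smooth muscle actin gene Acta2 had 461 and 2540 CPM in HFD 1 and HFD 2 members and 135 and 1506 CPM in CTRL 1 and CTRL 2 members, against 3.57, 0, 13.1 and 0.351 CPM in endothelium (log2 7.63 ± 1.15, edgeR adjusted p = 0.00068). Myl9, a regulatory light chain, had 1316, 2929, 658 and 1698 CPM, against 10.7 to 23.2 CPM in endothelium (log2 6.57 ± 0.28, edgeR adjusted p = 2.6e-07). HFD 2 and CTRL 2 were the higher libraries for both genes, and a single member held 344 of the 425 Acta2 UMIs of HFD 2.

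At least 3 of Acta2, Tagln, Myh11, Cnn1, Lmod1 and Actg2 were detected in 41 members. They were 7 of 24 in HFD 1 (29.2%, 95% exact interval 12.6 to 51.1) and 14 of 30 in HFD 2 (46.7%, 28.3 to 65.7), against 5 of 16 in CTRL 1 (31.3%, 11.0 to 58.7) and 15 of 35 in CTRL 2 (42.9%, 26.3 to 60.6). The shares averaged 37.9% ± 12.4 in HFD and 37.1% ± 8.21 in CTRL (SD, n = 2 each; two-sided exact permutation p = 1), and the sign of this difference changed when HFD 2 was left out (-7.89 percentage points) or CTRL 1 was (-4.94). Detection of several genes needs depth: thinned to 2000 UMIs, the contractile share was 6.25% and 22.2% in HFD 1 and HFD 2, against 7.14% and 20% in CTRL 1 and CTRL 2.

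**Figure D4:**
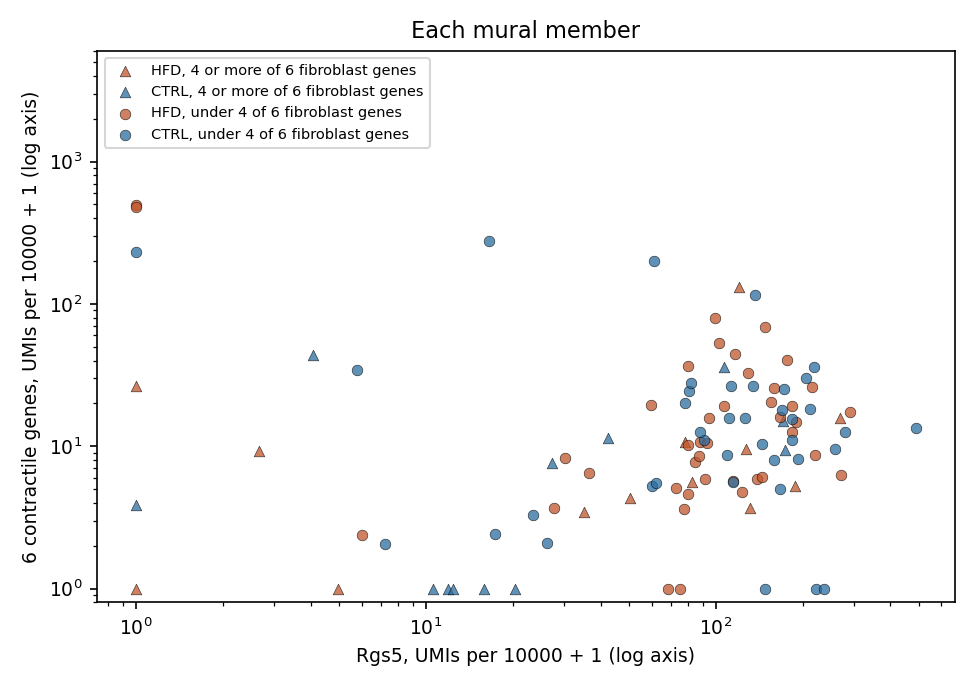
Each of the 105 mural members by Rgs5 (x axis) and by the sum of 6 contractile genes (y axis), both as UMIs per 10000 plus 1 on log axes, coloured by diet; triangles mark members with at least 4 of 6 fibroblast genes. Most members form one cloud at high Rgs5, and 3 members without an Rgs5 UMI stand at the upper left with 230 to 495 contractile UMIs per 10000.

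Among the 100 members, 39 were contractile, with a median of 5292 UMIs, and 61 were not, with 3905. Contractile RNA formed a gradient with a small upper end: only 7 of the 100 had more than 100 contractile UMIs per 10000, 1 in HFD 1, 2 in HFD 2, 0 in CTRL 1 and 4 in CTRL 2. No Rgs5 UMI was seen in 3 of these 7. The HFD 2 member with 477 contractile UMIs per 10000 was the 1 member with 6 of 6 contractile genes, and it shares its barcode with the HFD 1 member at 495 per 10000, which had 930 UMIs against 14875. These counts hold both copies, and without the shallower one 6 members had more than 100 contractile UMIs per 10000 and 2 of them had no Rgs5 UMI. Of genes outside the split, Myl9 averaged 2508 CPM in contractile and 1314 CPM in other members over the 4 libraries and Tpm2 1470 and 501 CPM, each higher in 4 of 4 libraries. Pln, the phospholamban gene of the calcium pump, had 54 UMIs in 5 contractile members and 0 UMIs in the other 61. Notch3 was higher in contractile members in 4 of 4 libraries (597, 918, 838 and 672 CPM, against 402, 463, 472 and 481 CPM), while Pdgfrb was lower in 4 of 4 (368, 1058, 1036 and 991 CPM, against 1269, 1240, 1216 and 1044 CPM). Ndufa4l2 averaged 1267 CPM in contractile and 1109 CPM in other members and was higher in 3 of 4 libraries. These levels were not tested, since the split was made on the same cells.

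Serum response factor drives contractile genes through the CArG box, and the promoters of the contractile list were searched for it. Of the 22 listed genes, 17 matched a promoter window of 300 bases, 250 before and 50 after the annotated start, from RefSeq on GRCm38.p6. Tagln, Myh11, Actg2, Map3k7cl and Myocd matched no window and were not searched. A strict CArG box on either strand was found for 1 of the 17 (5.88%), Myl9, against 1.63% of 32851 promoters. A match with at most 1 base off was found for 8 of 17 (47.1%), Myl9 among them, against 21.1%. The 2 windows below, from Myl9 at chr2:156775214-156775513 (plus strand) and Acta2 at chr19:34255324-34255623 (minus strand), show the strict box of Myl9 and the 2 near boxes of Acta2 in capitals. A further near box of Myl9 is left in small letters. A match is a description of letters and not of binding.
Myl9: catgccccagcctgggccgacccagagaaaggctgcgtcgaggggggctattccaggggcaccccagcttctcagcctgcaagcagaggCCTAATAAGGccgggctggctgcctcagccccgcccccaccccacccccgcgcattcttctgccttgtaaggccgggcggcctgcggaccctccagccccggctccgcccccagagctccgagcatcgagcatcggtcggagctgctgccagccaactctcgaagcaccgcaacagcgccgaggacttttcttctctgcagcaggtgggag
Acta2: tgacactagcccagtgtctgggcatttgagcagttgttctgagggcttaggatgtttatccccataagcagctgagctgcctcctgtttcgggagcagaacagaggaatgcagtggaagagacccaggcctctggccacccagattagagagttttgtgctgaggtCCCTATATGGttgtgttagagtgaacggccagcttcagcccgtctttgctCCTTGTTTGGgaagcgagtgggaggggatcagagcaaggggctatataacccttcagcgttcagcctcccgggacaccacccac

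Fibroblast RNA also differed among the members. At least 4 of the 6 fibroblast genes were detected in 25 members, 4 in HFD 1 and 9 in HFD 2, against 5 in CTRL 1 and 7 in CTRL 2. Only 5 of the 41 contractile members were among them, and 44 members were in neither subset. Over the 100, the 23 with fibroblast genes averaged 1674 CPM of Dcn and the other 77 averaged 69.4 CPM, whereas fibroblast barcodes had 6175 to 11973 CPM. The 23 were 4, 9, 4 and 6 barcodes in HFD 1, HFD 2, CTRL 1 and CTRL 2. Their median depth was 5704 UMIs, against 4277 in the 77. They included the 2 members with at least 3 of 8 cycling genes. The cycling member of CTRL 2 held 19436 of the 45455 UMIs of that library's 6 barcodes, so the library sums rest on few barcodes. Of the 7 mural genes, 4 were lower in the 23 in 4 of 4 libraries: Kcnj8 was 84.8, 576, 236 and 462 CPM in HFD 1, HFD 2, CTRL 1 and CTRL 2, against 711, 863, 1328 and 611 CPM in the 77. Abcc9, Higd1b and Cspg4 were the other 3, and Ednra, no gene of the rule, was lower in 4 of 4 libraries too. Rgs5, Pdgfrb and Notch3 were lower in the 23 in 3 libraries and higher in HFD 2, where Rgs5 had 11480 CPM in the 23 and 11125 CPM in the 77. Among genes the split did not use, Lamb1 was 593, 218, 283 and 396 CPM in the 23, against 94.1, 94.7, 55.3 and 70.5 CPM in the 77, and Tgfb2 had 2 UMIs in the 23 against 43 in the 77. Col4a1, Gsn and Hspg2 were higher in 4 of 4 libraries. Of the 6 members without an Rgs5 UMI, 3 carried 6 of 6 fibroblast genes. The levels in the 23 and the 77 too are a description, since the split used the same cells.

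Diet changed no gene of the mural members at an adjusted p under 0.05. Of 3462 genes, edgeR called 0 (0%) and DESeq2 0, 96 (2.77%) had an unadjusted p under 0.05 in edgeR and 34 in DESeq2, and the 2 libraries of one diet both lay above the 2 of the other for 539 genes with HFD higher (15.6%) and 441 with HFD lower (12.7%). Leaving out a library gave 12 calls without HFD 1, 47 without HFD 2, 5 without CTRL 1 and 45 without CTRL 2, each with 1 library left in a diet. In a simulation of this fit with a fixed dispersion of 0.1 for every gene, 63.6% of genes changed 4-fold were recovered. Changes of that size can thus be missed even at that setting. The simulation did not use the spread seen between these libraries, so the recovery in the real fit is not known.

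The 20 genes with the lowest p are given as values that did not pass (edgeR adjusted p = 0.9995 for each). Ccnd1, the cyclin of early G1, had 143 and 179 CPM in HFD 1 and HFD 2 members, against 615 and 596 CPM in CTRL 1 and CTRL 2 members (log2 -1.93 ± 0.35), and 57 of its 128 UMIs in CTRL 1 came from the deepest barcode. Cp, which encodes the ferroxidase ceruloplasmin, had 470 and 514 CPM in HFD 1 and HFD 2 members, against 130 and 181 CPM in CTRL 1 and CTRL 2 members (log2 1.64 ± 0.34), with a UMI in 13 and 24 members against 11 and 19. Cxcl1 was the other of the 20 with higher HFD values, at 335 and 209 CPM against 62.5 and 122 CPM (log2 1.53 ± 0.45), and 18 of its 40 UMIs in HFD 1 came from 1 member. Ednrb had 50.3 and 65.7 CPM in HFD 1 and HFD 2, against 240 and 144 CPM in CTRL 1 and CTRL 2 (log2 -1.74 ± 0.46), and over the 100 members 50.3 and 34.4 CPM against 239 and 127 CPM. The Notch feedback gene Nrarp had 58.7 and 41.8 CPM, against 187 and 133 CPM (log2 -1.72 ± 0.43). Of its 39 UMIs in CTRL 1, 13 came from the deepest barcode. The diets did not overlap for any of the 20 genes, which their choice by lowest p nearly fixes, while 15.6% of all genes lay higher and 12.7% lower in both HFD libraries.

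Several of the other 15 rested on 1 or 2 barcodes. Top2a, Prc1, Tpx2 and Hist1h2ap, genes of dividing cells, had 0, 0, 2 and 0 UMIs in HFD members, against 33, 56, 34 and 28 in CTRL members. The 2 cycling members, 1 in CTRL 1 and 1 in CTRL 2, held 33 of the 33 Top2a, 54 of the 56 Prc1, 31 of the 34 Tpx2 and 23 of the 28 Hist1h2ap UMIs, and no HFD member passed the same limit of 3 of 8 cycling genes. The single CTRL 1 barcode of 85033 UMIs held 74 of 79 Cldn7, 55 of 59 Sfn, 108 of 162 Cryab and 54 of 77 Clu UMIs of that library, and Cldn7 and Sfn are epithelial genes. The remaining 7 (Tubb2a, Hist1h1e, Ifrd1, Tmpo, Nr4a2, Isg15 and Ier3) had log2 differences between -2.49 and -1.20, and single barcodes weighed on these too. A member held 38 of 53 Nr4a2 UMIs in CTRL 1 and another 14 of 18 in CTRL 2. The deepest CTRL 1 barcode held 22 of 29 Tubb2a and 58 of 98 Ifrd1 UMIs, and the cycling CTRL 2 member held 21 of 33 Tmpo UMIs. Together the 2 cycling members held 24 of the 47 Hist1h1e and 29 of the 68 Tmpo UMIs of CTRL members.

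Immediate-early genes, which dissociation also induces, had medians of opposite sign over the 105 and the 100 members. All 25 that passed the filter had a negative log2 difference, with a median of -0.81 against -0.00 over all 3462 genes, and 14 of the 25 lay lower in both HFD libraries, as did 12.7% of all genes tested. Their summed level was 15831 and 23578 CPM in HFD 1 and HFD 2, against 33099 and 24927 CPM in CTRL 1 and CTRL 2. Over the 100 members it was 15831 and 19724 CPM in HFD 1 and HFD 2, against 8372 and 23018 CPM in CTRL 1 and CTRL 2, so that CTRL 1 changed from the highest to the lowest library. Of the 20 genes tested in both sets of members, 20 were negative over all members (median -0.74) and 14 were positive over the 100 (median 0.14). Egr1, for example, had 504 of its 667 CTRL 1 UMIs in the deepest barcode.

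**Figure D5:**
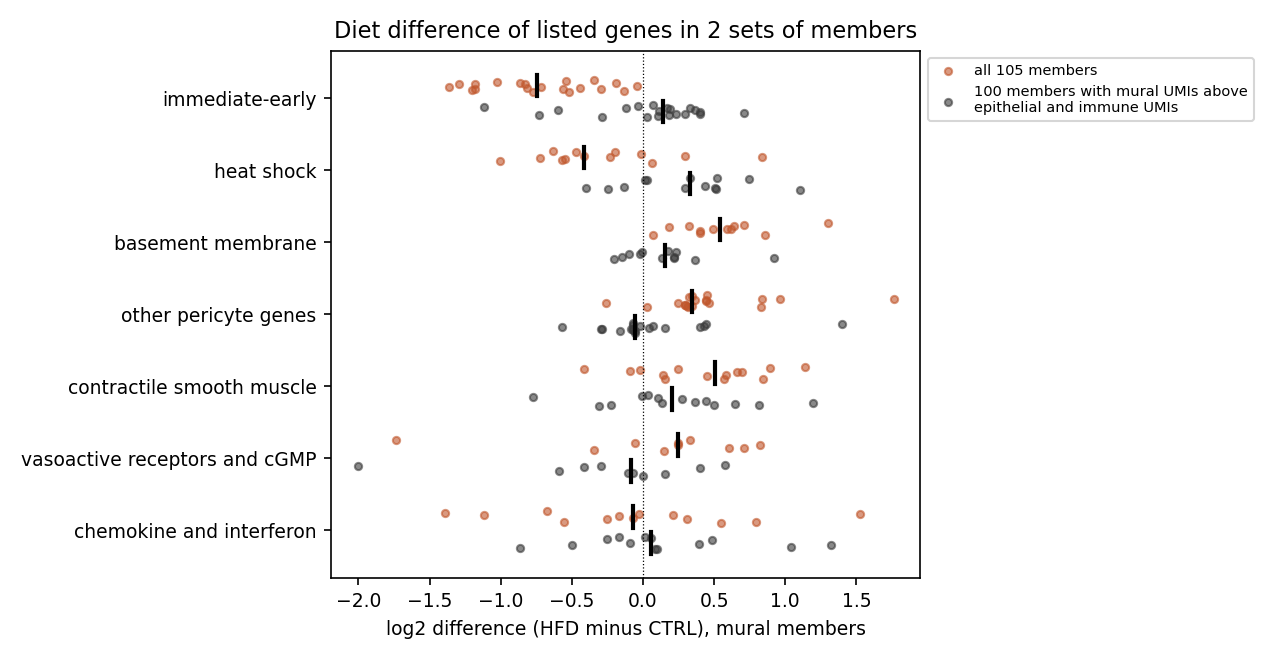
Log2 difference between HFD and CTRL for listed genes tested in both sets, over all 105 members (upper row of each list) and over the 100 whose mural UMIs exceed epithelial and immune UMIs (lower row), with black bars at the medians. The immediate-early median is -0.74 in the upper row and 0.14 in the lower row, and that of other pericyte genes is 0.34 and -0.06.

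Other lists also shifted between the 2 sets of members, and no list held a gene that passed. The medians of mural rule, other pericyte, contractile, vasoactive, basement membrane and fibrillar collagen genes were lower over the 100. Those of heat shock, chemokine and interferon, and lipid, insulin and glucocorticoid genes were higher, and the cause was not tested. The 7 mural rule genes had a median of 0.45 over all members and 0.08 over the 100. Over all members the medians were -0.41 for 13 heat shock genes, 0.34 for 19 other pericyte genes, 0.54 for 12 basement membrane genes and 0.51 for 14 contractile genes. Over the 100 they were 0.33, -0.06, 0.16 and 0.20. The median of 8 TGF-beta and BMP genes was 0.14 over all members and 0.37 over the 100, and that of 6 Notch genes was -0.05 and -0.16. Of 17 chemokine and interferon genes tested 6 were positive and 11 negative.

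Whether the diet difference itself differed between mural and endothelial cells was tested as an interaction across 10989 genes. edgeR called 0 (0%), and 304 genes (2.77%) had an unadjusted p under 0.05. It called 16 over the 100 members, and 0, 3, 19 and 101 without HFD 1, HFD 2, CTRL 1 and CTRL 2. An interaction simulated at the same fixed dispersion was recovered in 0% of genes at a 4-fold and 64.6% at a 32-fold change. At that setting a 4-fold difference between the classes was not detectable at this depth.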

How the data were processed

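Single-cell RNA-seq was analysed from 4 mouse pituitary libraries. The deposited matrices hold raw UMI counts per gene and barcode, which the authors made with Cell Ranger 6.1.2 on mm10, per the submitters' processing notes, which also name Seurat 4.3; the sources used here state no annotation or strand setting. The matrices hold 34737 barcodes and 32285 features.  No cell annotation was used.

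Counts were summed per library and class and tested with edgeR 4.0.16 (quasi-likelihood, TMM, filterByExpr, Benjamini-Hochberg over all genes of a fit) in R 4.3.3, with diet alone, or with library as a block between classes. CPM values are per 1000000 UMIs of the summed class. DESeq2 1.42.0, limits of the rule, depth, doublets (1540 barcodes scored as putative doublets by simulated neighbours, kept in the main values, 3 of them members) and leaving out libraries were alternatives. These 2 alternatives were added after the data were seen: the 100 members with more mural than epithelial and immune UMIs, and removal of shallower copies of shared barcodes.

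The members and gene lists were chosen with earlier results of these data known. Named genes were, for diet, the 20 with the lowest p when fewer passed, and for classes the 10 largest positive and 5 largest negative called differences at 100 CPM or more in the higher class, besides listed genes. Each fit was checked on counts simulated with a fixed dispersion of 0.1. Of genes changed 4-fold, 63.6%, 68.6% and 95.0% were recovered for the diet, endothelial and fibroblast comparisons. Replicate numbers were not taken as pairs, since the titles do not state that they pair samples. Figures were drawn with matplotlib 3.10.9.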

Additional observations from a re-analysis of the deposited data

Results flagged for a closer look

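Il33, an alarmin gene of fibroblasts, was singled out in 1 of 30 checks, 15 genes in each of the mural against endothelial and mural against fibroblast comparisons, for a single library far from the others. Its log2 difference between mural members and fibroblasts, computed on CPM plus 1, was -8.03 in CTRL 1 and between -4.65 and -4.37 in the other 3 libraries. CTRL 1 had 0 Il33 UMIs in its members, against 4 or 5 in each other library, and 260 CPM in its fibroblasts. Chance alone flags about 1 in 20 such groups, and the direction was the same in 4 of 4 libraries.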

How the results depend on the processing

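The 15 genes named for each class comparison kept their direction and their call in every alternative run. The replicate block changed no diet call (0 of 3462 genes), and without the library block 2053 endothelial and 617 fibroblast calls were made, against 1795 and 677 with it. Diet calls numbered 0 with DESeq2, DESeq2 size factors, stricter limits, doublets removed, the 100 members, or shallower copies removed, but 64 with no low-count filter, where 14599 genes were tested, and 5 to 47 when a library was left out. The interaction gave 30 without the filter, 16 over the 100 members and 0 to 101 with a library left out. Mural against endothelial gave 1494 lower calls without the filter, and 552 to 879 higher calls with a library left out (552 without CTRL 2). Mural against fibroblast gave 1395 calls without the filter (811 lower), 450 lower over the 100 members, and with a library left out 425 to 898 in all, 219 to 469 higher and 189 to 429 lower. The log2 difference in member share lay between -0.473 and -0.00399 when a library was left out and became 0.0231 when members with UMIs of other cell classes were removed. The difference in contractile share (0.86 percentage points) lay between -7.89 and 9.61 with a library left out, -7.89 without HFD 2 and -4.94 without CTRL 1, and was -1.64 with 2 mural genes required, -1.04 under stricter limits, -2.99 without doublets and -3.64 without members holding other-class UMIs. The causes of these shifts were not tested beyond the changed number of genes or libraries. With 16 to 35 members a library, depth limits every diet result, and a leave-one-out fit assumes that a lone library varies like the others.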

Other observations

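Hemoglobin RNA differed between libraries in the vascular classes. The 8 red cell and granulocyte genes summed to 5561 and 8715 CPM in endothelial barcodes of HFD 1 and HFD 2, against 89.3 and 49.4 CPM in CTRL 1 and CTRL 2. In mural members the sums were 176 and 12198 CPM in HFD 1 and HFD 2, against 76.9 and 74.5 CPM in CTRL 1 and CTRL 2, and 1 HFD 2 member held 2018 of the UMIs.

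Sox9, a transcription factor of stem cells and of mesenchyme, was higher in mural members than in endothelium, at 92.2, 47.8, 245 and 74.5 CPM in HFD 1, HFD 2, CTRL 1 and CTRL 2, against 36.3, 13.7, 47.8 and 18.9 CPM (log2 1.89 ± 0.28, edgeR adjusted p = 0.00059). Over the 100 members it was 92.2, 27.5, 66.3 and 63.6 CPM, so most of the CTRL 1 level lay in the barcodes rich in epithelial or immune RNA. Mt1, a metallothionein gene, did not pass against endothelium and had 2038, 5146, 7903 and 2475 CPM in HFD 1, HFD 2, CTRL 1 and CTRL 2 members and 2038, 777, 716 and 1173 CPM over the 100.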
